A study of Mus musculus with 8 samples.

Results

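The 8 genes described here, Pkhd1, Pkd1, Pkd2, Bicc1, Nphp4, Invs, Glis2 and Ift88, are genes in which mutations cause cystic or nephronophthisis-type kidney disease in mice or humans. They were taken by name, and the probe set of each, among those with exactly 1 gene symbol, was selected on its mean level over the 8 arrays, the highest being kept. Of them, 7 were among the 19356 genes with such a probe set, and Pkd2 was not analysed here because no probe set carried its name in the annotation used. The list was drawn up with earlier results of this genotype comparison known, so the values of its members are a description and lend no independent support to any pattern. The mean level that selected the probe sets ignores genotype.

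RNA came from the caudal region of the urogenital ridge, the strip of embryonic tissue that gives rise to kidney, gonad and their ducts, dissected from mouse embryos of mixed genetic background at E10.75, in mid-gestation. There were 4 wild type (wildtype) and 4 Sox11 knockout (Sox11-/-) samples, which the labels call biological replicates and report as untreated, with 1 array each. The sources used here do not say whether single or pooled embryos were used, which part of Sox11 was deleted, or which samples were littermates. Values are log2 signals, normalized by the authors so that the arrays share nearly 1 distribution, and 1 unit is a doubling.

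Most of these genes act at the primary cilium, a single hair-like antenna on the surface of tubule and duct cells. Polycystin-1 (Pkd1) and polycystin-2 (Pkd2) form a receptor-channel complex there and are the genes of dominant polycystic kidney disease, whereas fibrocystin (Pkhd1), the gene of the recessive form, is a membrane protein of cilia and apical surfaces in the nephric duct, ureteric bud and collecting duct. Nephronophthisis proteins hold the gate at the ciliary base or the segment just above it, and intraflagellar transport carries cargo along the shaft.

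Upstream sequence is shown for Pkhd1, the member whose signal differed most between genotypes, and for Ift88, a ciliary member whose arrays overlapped, for contrast. Both are RefSeq sequences of GRCm38.p6, 200 bases long, written on the strand of the gene and ending 50 bases before the RefSeq transcript start. Pkhd1 lies on the minus strand at chr1:20618108-20618307 and Ift88 on the plus strand at chr14:57423821-57424020. Both were searched on either strand for ACAAT, a core of SOX sites, and for GTTGCC, 1 arm of the X-box bound by RFX factors of ciliary genes, and a match would stand in capitals.
Pkhd1: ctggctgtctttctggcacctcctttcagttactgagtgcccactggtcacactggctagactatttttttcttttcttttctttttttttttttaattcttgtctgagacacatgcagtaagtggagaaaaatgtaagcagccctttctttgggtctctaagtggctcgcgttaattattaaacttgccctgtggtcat
Ift88: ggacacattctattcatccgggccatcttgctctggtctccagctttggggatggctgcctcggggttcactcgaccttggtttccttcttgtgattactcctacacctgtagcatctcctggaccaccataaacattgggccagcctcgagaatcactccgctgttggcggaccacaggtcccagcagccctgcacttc
Neither window held the SOX core or the X-box arm. Over all 32851 RefSeq windows of this length 23.7% held the SOX core and 8.05% the X-box arm. RefSeq windows were found for 6 of the 8 genes. Those of Invs, Pkd1 and Pkd2, and some of Nphp4, overlapped the annotated span of the gene itself, unlike those of Pkhd1 and Ift88. The windows of Invs, Nphp4, Pkd1 and Pkd2 held no match either. This says only that these letters are not in these windows.

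In the knockout ridges Sox11 was 6.44-fold lower (a log2 difference of -2.69 with an SE of 0.08 and an adjusted p of 6.36e-08 by limma), which checks the labels. The limma fit over all genes called 70 genes higher and 209 lower, 1.44% of the 19356 tested, and with each array centred on its median the split was 82 higher and 137 lower. The Y-linked genes Eif2s3y, Kdm5d and Uty were bright in wild type replicate 1 and knockout replicates 3 and 4, so the sexes were unevenly spread. The tissue label was checked against nephric duct markers, of which Gata3 read 10.06 ± 0.04 and Ret 9.66 ± 0.06 in wild type ridges (SD, n = 4 each), and the 13 measured lay at a median 80.5th percentile of level.

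Pkhd1 was higher in the knockout ridges, and the other 6 measured members did not pass the threshold of an adjusted p under 0.05. Its signal (probe set 10353346) was 7.29, 7.16, 7.21 and 7.29 in wild type replicates 1 to 4 and 7.55, 7.82, 7.73 and 7.70 in knockout replicates 1 to 4. All 4 knockout arrays were above all 4 wild type arrays, with knockout replicate 1 nearest to them. The mean went from 7.24 ± 0.07 to 7.70 ± 0.11 (SD, n = 4 each), a difference of 0.46 (SE 0.07, 95% interval 0.30 to 0.62), or 1.38-fold, with a limma adjusted p of 0.0150 over all genes. Thus 1 of 7 members was called, beside 0.362% of all genes called higher, and since the list was made with this contrast known nothing is read from that count. The same holds for the 1 member whose arrays did not overlap between genotypes, beside 10.5% of all genes.

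The call for Pkhd1 sat close to the threshold. Leaving out wild type replicate 2 gave a limma adjusted p of 0.0538 and leaving out knockout replicate 4 gave 0.0565, while the difference stayed at 0.43 and 0.46. It was 0.0661 in a linear model per gene without moderation. With Y-linked signal in the model the difference was 0.45 and the adjusted p 0.0351. Pkhd1 lay at the 48.9th percentile of level over all genes, in a part of the range where array signal can understate a difference. Whether it did so for this probe set was not tested.

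**Figure D1:**
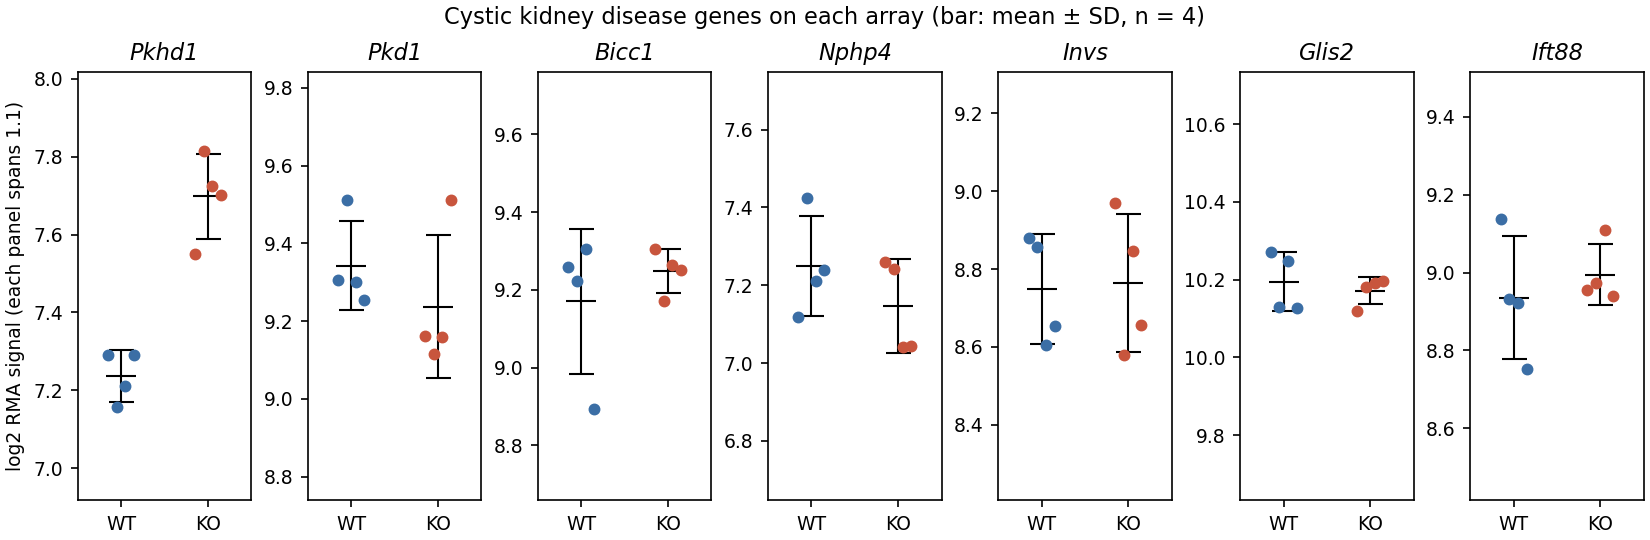
Log2 RMA signal of the 7 measured cystic kidney disease genes on each array, 1 panel per gene, with 4 wild type (WT, blue) and 4 Sox11 knockout (KO, red) arrays as points and mean ± SD as bars; every panel spans the same height in log2 units. The 4 knockout arrays of Pkhd1 (7.55 to 7.82) sit above the 4 wild type arrays (7.16 to 7.29), and the other 6 genes overlap.

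Of the polycystins only Pkd1, the large receptor-like partner of the complex, was measured. Its signal (probe set 10442495) was 9.31, 9.51, 9.30 and 9.25 in the wild type arrays and 9.16, 9.12, 9.16 and 9.51 in the knockout arrays. Knockout replicates 1 to 3 were below every wild type array, whereas knockout replicate 4 was level with wild type replicate 2, the highest of its group. The difference was -0.10 (SE 0.10, 95% interval -0.32 to 0.11, limma adjusted p = 0.621). Without knockout replicate 4 it was -0.20, the largest size over the arrays left out in turn, and the adjusted p was then 0.366.

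Bicc1 encodes an RNA-binding protein whose loss gives polycystic kidneys in mice. In wild type its signal (probe set 10369844) was 9.26, 9.22, 9.30 and 8.89, and in knockout 9.31, 9.17, 9.27 and 9.25. Wild type replicate 4 was the lowest array, and the other 7 lay close together. The difference was 0.08 (SE 0.09, 95% interval -0.13 to 0.28, limma adjusted p = 0.700). A second probe set of Bicc1 (10369842), with a lower mean, gave -0.04 (SE 0.10), so the 2 probe sets differed in sign and neither passed.

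Nphp4, Invs and Glis2 stand for nephronophthisis. Nphp4, a scaffold of the transition zone at the ciliary base, had a signal (probe set 10510767) of 7.12, 7.42, 7.21 and 7.24 in wild type and of 7.26, 7.24, 7.04 and 7.04 in knockout. Knockout replicates 3 and 4 were the lowest arrays, but replicates 1 and 2 lay within the wild type range. The difference was -0.10 (SE 0.09, 95% interval -0.29 to 0.09, limma adjusted p = 0.580). Invs encodes inversin, which marks the ciliary segment above the transition zone. It read (probe set 10504865) 8.88, 8.86, 8.60 and 8.65 in wild type and 8.97, 8.58, 8.85 and 8.66 in knockout. Each genotype had both high and low arrays, and the difference was 0.01 (SE 0.10, 95% interval -0.21 to 0.24, limma adjusted p = 0.958). Glis2, a zinc finger transcription factor (probe set 10433264), read 10.27, 10.13, 10.25 and 10.13 in wild type and 10.12, 10.18, 10.19 and 10.20 in knockout. The knockout arrays fell within or just under the wild type range. Glis2 had the narrowest interval of the 7 genes, -0.16 to 0.12, around a difference of -0.02 (SE 0.06, limma adjusted p = 0.887).

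Ift88, or polaris, is a core subunit of the intraflagellar transport B complex, and a partial loss of it causes cysts in mice. Its signal (probe set 10415608) was 9.14, 8.93, 8.92 and 8.75 in wild type and 8.96, 8.97, 9.11 and 8.94 in knockout. The knockout arrays lay inside the wild type range. The difference was 0.06 (SE 0.09, 95% interval -0.13 to 0.25, limma adjusted p = 0.766). For these 6 genes the intervals reach at most from -0.32 to 0.28. Each of the 6 intervals ends below the lower bound for Pkhd1 (0.30), and whether Pkhd1 differed from them in response was not tested because Pkhd1 was singled out with its difference known.

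**Figure D2:**
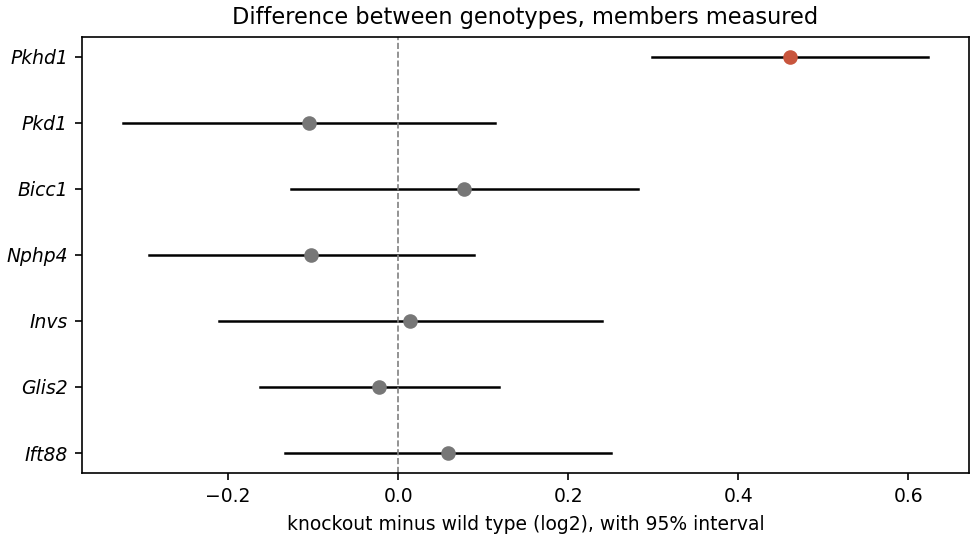
Difference between genotypes (knockout minus wild type, log2) of the 7 measured members, with the 95% interval of the limma fit as a line and the estimate as a point, red where the adjusted p over all genes is under 0.05. Pkhd1 is at 0.46 with an interval of 0.30 to 0.62, and the intervals of the other 6 cross 0.

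The wider pathway was read from gene lists of cystic and ciliary biology, which name 122 genes with polarity and motile cilia genes included. Of them 118 were measured, 1 rose (Pkhd1), 1 fell (Fzd3) and 116 did not pass. Their median difference was -0.04, against -5e-04 over all genes, and 39.0% lay above 0, against 49.9% of all genes. These genes are brighter than most, at a median 64.6th percentile of level, and brighter genes as a whole lay lower. Among genes above the median level the median was -0.07 for 90 list genes and -0.04 for all 9678, and 32.2% and 37.0% lay above 0. Without the members 16 of 111 had an unadjusted p under 0.05, or 6 higher and 10 lower, beside 16.7% of all genes.

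The first list held fibrocystin and polycystin relatives, enzymes and chaperones that mature these proteins in the endoplasmic reticulum, and other genes, Lrp5 among them. Of its genes 16 of 17 were measured, Pkhd1 rose and 15 did not pass. The median was -0.01, and 0.02 with each array centred on its median. Sec63, a translocon protein mutated in polycystic liver disease, was at -0.15 and the WNT co-receptor gene Lrp5 at -0.15 (limma adjusted p = 0.269 and 0.278). In the nephronophthisis list limma called 0 of 20 measured genes, 2 had an unadjusted p under 0.05, and 14 lay below 0 with a median of -0.08. Dcdc2a, a doublecortin-domain protein of the ciliary axoneme, had the largest difference in this list. Its signal was 7.33, 7.31, 7.64 and 7.51 in wild type and 7.14, 6.78, 7.16 and 7.07 in knockout. These groups did not overlap, but the difference of -0.41 (SE 0.10) had a limma adjusted p of 0.0862. Nek8, a kinase of the inversin segment, was at 0.17 (limma adjusted p = 0.259), and its partner Anks6 at -0.03 (0.884).

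Of the transition zone genes limma called 0 of 16, with 1 at an unadjusted p under 0.05, the tectonic gene Tctn1 at 0.23 (limma adjusted p = 0.209). Transport along the cilium gave no call either. In intraflagellar transport B 0 of 17 passed and 0 had an unadjusted p under 0.05, with 12 below 0 and a median of -0.06. The lowest p there was that of Traf3ip1, a subunit also in the nephronophthisis list, at -0.19 (limma adjusted p = 0.310). In intraflagellar transport A, the complex for the return journey, 0 of 6 passed by limma and 1 had an unadjusted p under 0.05, while all 6 lay below 0 with a median of -0.12. The gene with the lowest p there was Ift140, mutated in a skeletal ciliopathy with kidney disease. It read 8.92, 8.96, 9.05 and 8.95 in wild type and 8.63, 8.74, 8.79 and 8.74 in knockout, without overlap. Its difference of -0.25 (SE 0.06) had a limma adjusted p of 0.0942, which was 0.0486 when only genes above the median level were tested. That was the only 1 of 19 alternatives in which Ift140 passed. The adjusted p ran up to 0.235 in the others, by limma or the linear model without moderation. Ciliary motor genes had 0 of 8 called, with Dync2h1, the motor heavy chain of the return journey, at -0.20 (limma adjusted p = 0.231) as the only one at an unadjusted p under 0.05. BBSome genes, whose products load membrane cargo, had 0 of 7 called and 0 at an unadjusted p under 0.05, with the subunit gene Bbs9 at -0.14 (limma adjusted p = 0.332).

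**Figure D3:**
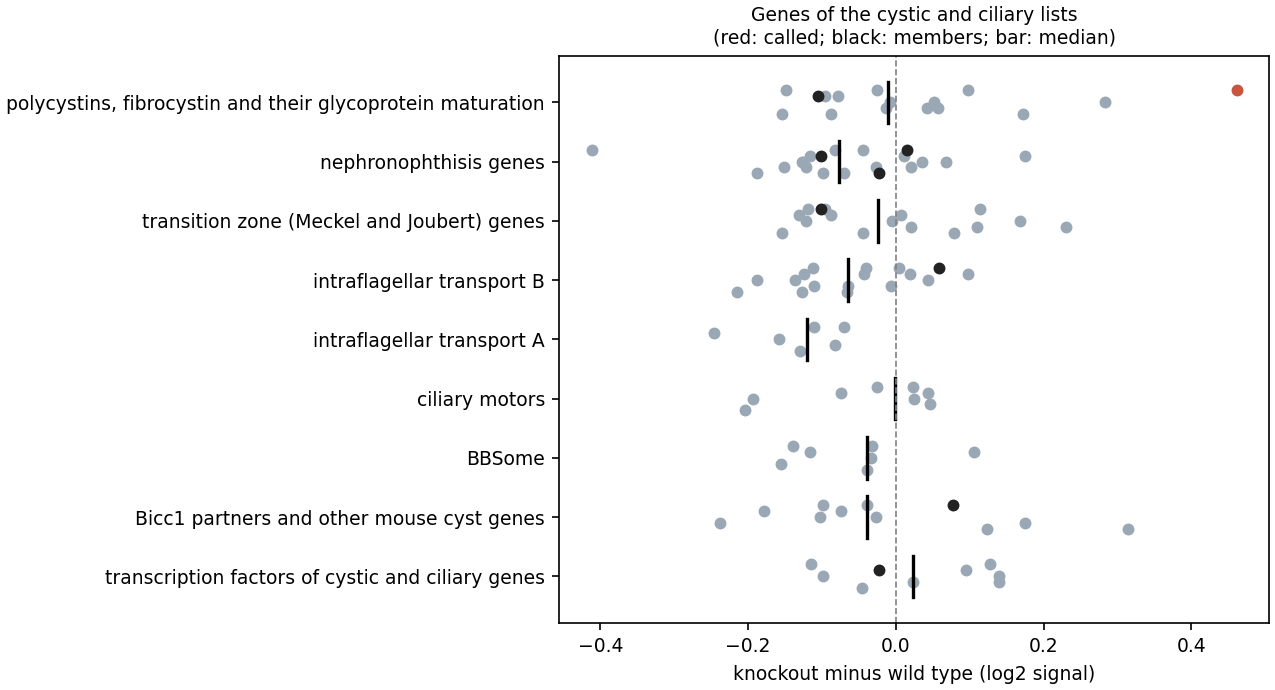
Difference between genotypes (knockout minus wild type, log2 signal) of every measured gene in 9 lists of cystic and ciliary genes, 1 point per gene, with black bars for list medians, black points for members and red for a gene called by limma over all genes. Pkhd1 stands alone at 0.46, all 6 intraflagellar transport A genes lie left of 0, and the medians run from -0.12 to 0.02.

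In the list of partners of Bicc1 and other cyst genes of mice limma called 0 of 11, and 3 had an unadjusted p under 0.05. Flcn, the folliculin tumour suppressor gene, was at -0.24 (SE 0.07, limma adjusted p = 0.111), Nek8 was given above, and the kinesin gene Kif12, a proposed modifier of cyst severity in mice, was at 0.31 (SE 0.10, limma adjusted p = 0.157). Kif12 read 7.46, 7.25, 7.48 and 7.39 in wild type and 7.71, 7.47, 7.94 and 7.71 in knockout, so that only knockout replicate 2 lay within the wild type range. Pkhd1 was in contrast highest in that array. The list drawn up as transcription factors of cystic and ciliary genes had 0 of 9 called and 0 at an unadjusted p under 0.05. Rfx5 had the lowest p, at 0.14 (limma adjusted p = 0.405), and Rfx3 came next at -0.11 (limma adjusted p = 0.429). Foxj1, the master factor of motile cilia, was at 0.14 (SE 0.15, limma adjusted p = 0.662).

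Markers of the nephric duct, the epithelium in which Pkhd1 is known to be active, lay mostly above 0 in the same arrays. Of 13 measured, Ret, the GDNF receptor of the duct, rose by 0.41 (SE 0.07) with a limma adjusted p of 0.0220, and 12 missed the threshold. In all 11 lay above 0, with a median of 0.19, and 6 of 13 were higher at an unadjusted p under 0.05, beside 7.29% of all genes. The call of Ret was lost in 6 of 19 alternatives, a linear model without moderation and the fits without wild type replicate 2 or 3 or knockout replicate 1, 2 or 3 (adjusted p up to 0.0764). The log2 signal averaged over the 13 markers, each with the same weight, ran from 9.15 to 9.43 in wild type ridges. In knockout ridges it ran from 9.45 to 9.57, so the arrays did not overlap but lay close to each other. Averages of the intraflagellar transport A list and of the mesenchyme and somite markers given below also did not overlap, all lower in knockout. For the somite markers they ran from 8.53 to 8.67 in wild type and from 8.08 to 8.43 in knockout. The averages of the other lists overlapped between genotypes.

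The duct markers did not share 1 size of difference. Calb1, a calcium-binding protein of the duct, was at 0.63 (SE 0.14, limma adjusted p = 0.0624), the homeobox gene Lhx1 at 0.42 (SE 0.09, 0.0577) and Gata3 at 0.25 (SE 0.06, 0.0845). In each of these the genotypes did not overlap, which held for 10.5% of all genes in either direction. Cdh16, a cadherin of kidney epithelia, read 8.48, 8.47, 8.82 and 8.38 in wild type and 9.22, 8.40, 9.33 and 9.42 in knockout. Knockout replicate 2 lay with the wild type arrays, and the difference was 0.56 (SE 0.20, limma adjusted p = 0.202). Cdh16 passed in 1 of 19 alternatives, the fit without knockout replicate 2 (limma adjusted p = 0.0117). In the others the adjusted p, by limma or the linear model without moderation, ran up to 0.422. Smaller differences were those of Krt8 (0.23), Krt18 (0.19), Cdh1 (0.16), Wnt9b (0.15), Emx2 (0.08) and Epcam (0.06). Their limma adjusted p ran from 0.252 to 0.811. Pax8 and Pax2, the duct markers below 0, were at -0.02 and -0.20 (limma adjusted p = 0.940 and 0.412). In whole tissue a larger number of duct cells and more Pkhd1 RNA in each of them cannot be told apart, and the part of the duct markers in the Pkhd1 difference was not tested.

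**Figure D4:**
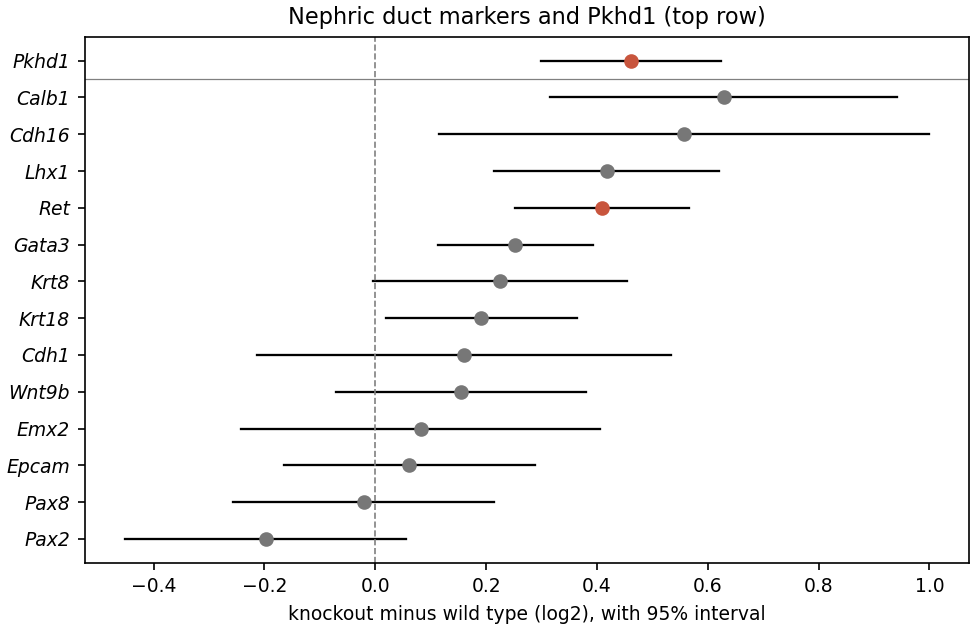
Difference between genotypes (knockout minus wild type, log2) with the 95% interval for the 13 measured nephric duct markers, ordered by size, and for Pkhd1 in the top row; red marks an adjusted p under 0.05. The value of Pkhd1 (0.46) falls between those of Cdh16 (0.56) and Lhx1 (0.42), while Pax2 is at -0.20.

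Of all 19356 genes limma called 209 lower and 70 higher, and 1815 were lower and 1412 higher at an unadjusted p under 0.05. Beside these, markers of other cells in the dissection gave the following counts by limma. Of mesenchyme markers 1 of 8 fell (Six2), with a median of -0.21, of neuronal markers 1 of 7 fell (Dcx), with a median of -0.30, and of somite markers 2 of 6 fell (Meox2 and Uncx), with a median of -0.29. Limma called 0 of 8 erythroid (median -0.27, 4 lower at an unadjusted p under 0.05), 0 of 7 muscle (0.26, 4 higher), 0 of 6 endothelial (0.06), 0 of 5 gonadal (-0.20) and 0 of 6 gut markers (0.01), and the last 3 lists had 0 at an unadjusted p under 0.05. Of 19 alternatives 12 ended the call of Six2, 11 that of Dcx, 2 that of Uncx and 1 that of Meox2. The adjusted p, by limma or the linear model without moderation, ran up to 0.134, 0.155, 0.109 and 0.0646, the last without moderation. Among the alternatives, leaving out 1 array ended the call of Six2 with each array except wild type replicate 1. It did so for Dcx with each except knockout replicate 3, and for Uncx with knockout replicate 1. The part of these cells in the Pkhd1 difference was not tested.

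The 6 genes whose profile was nearest to that of Pkhd1 were found over all 19356 genes. Likeness was the root mean square difference between log2 signals over the 8 arrays after removal of the mean of each gene, and Pkhd1 itself deviated from its mean by 0.244 on this measure. The nearest were 4930474M22Rik (0.0778), F630111L10Rik (0.0854), Matn2, which encodes an extracellular matrix adaptor protein (0.0869), Upk3bl, a uroplakin-like gene (0.0877), Lhx1 (0.0894) and Hpdl (0.0945). They were chosen for a profile that includes the genotype difference, so their differences, such as 0.52 for Matn2, are a description. The probe sets of 4930474M22Rik, F630111L10Rik and Hpdl lay at the 9.36th, 10.2nd and 16.6th percentile of level, at the low end of the arrays, where a log2 difference has no firm size. Lhx1 is the 1 duct marker among them. It read 7.06, 6.92, 6.99 and 7.02 in wild type and 7.33, 7.68, 7.27 and 7.38 in knockout. Like Pkhd1 it was lowest in wild type replicate 2 and highest in knockout replicate 2. That likeness is part of what selected Lhx1, so it too is a description, and a link to the duct was not tested.

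**Figure D5:**
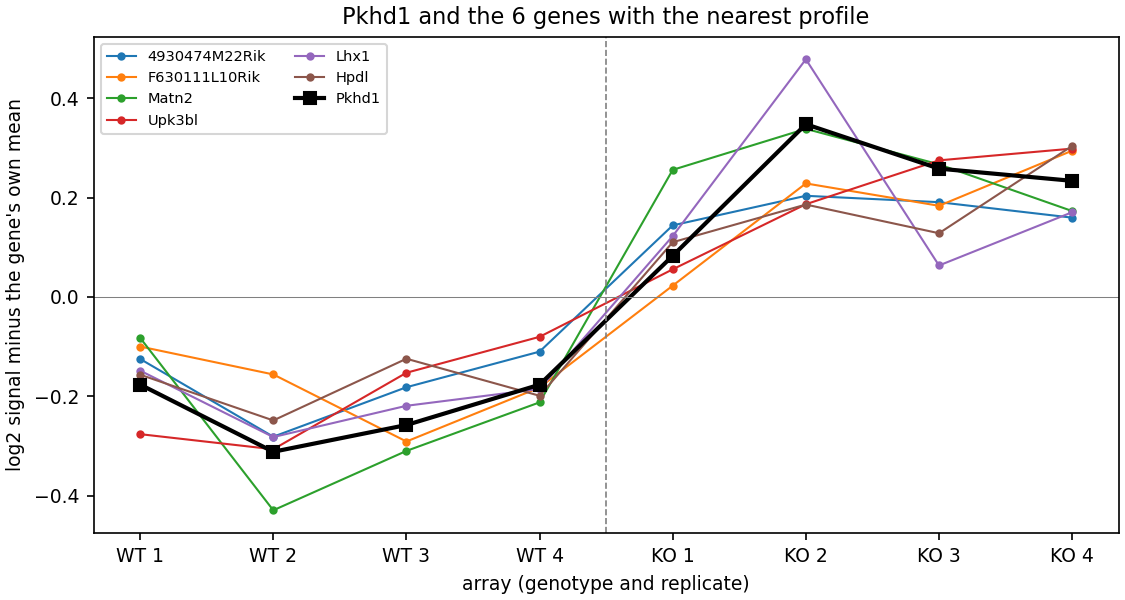
Log2 signal minus the mean of each gene over the 8 arrays for Pkhd1 (black) and the 6 genes with the nearest profile; the x axis lists the 4 wild type and 4 knockout arrays, which have no order, and lines only join the points of 1 gene. Every gene is below its mean in all wild type arrays and above it in all knockout arrays, by which they were chosen.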

How the data were processed

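Each of 8 arrays was hybridised with biotin-labelled RNA of 1 sample. The deposited values are log2 signals per probe set, made by the authors with RMA and Partek, per the submitters' processing notes; the sources used here name no version, setting or genome build, and the log2 scale was read from the values (4.30 to 14.62). Of 27478 probe sets 21103 carry exactly 1 symbol in the platform annotation. The probe set with the highest mean was kept per gene, giving 19356 genes, with no filter on level. The test was limma (version 3.58.1, under R 4.3.3), a moderated two-sided test with genotype as its only term, with p-values adjusted by Benjamini-Hochberg over all genes at 0.05. Differences are knockout minus wild type. Only 8 arrays limit the precision, and no counts lie behind the values. On simulated data with the same 19356 genes the fit found 64% of 100 genes shifted by 0.5 and 96% of 100 shifted by 1, and 6 of its 166 calls were false. The simulated noise was normal and independent between genes and arrays, and all shifts were upward. These shares may therefore not hold for the real arrays. Members and lists were chosen with earlier results of these data known. Named are the members, Sox11, Y-linked genes, Foxj1, Anks6 and the 6 profiles nearest to Pkhd1. So are the genes of each list past the threshold or, beside them, with the lowest p (1 or 2 in cystic and ciliary lists). Six2, Dcx, Meox2 and Uncx passed in marker lists. Gata3, Cdh16, Pax2, Pax8, Krt8, Krt18, Cdh1, Wnt9b, Emx2, Epcam, Vangl1 and Dvl3 were named after their values were seen. A further list and some genes are not reported here. Alternatives were 2 further normalizations, 2 filters on level, other uses of probe sets, other variance models, array weights, the replicate block, Y-linked signal as a term and each array left out. Figures used matplotlib 3.10.9.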

Additional observations from a re-analysis of the deposited data

Results flagged for a closer look

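In 84 groups of 4 arrays (42 genes in 2 genotypes) 1 array stood far from the other 3 in 7 groups by Dixon's test, which chance alone does in about 1 of 20 groups. Among the members this was Pkd1, where knockout replicate 4 read 9.51 and the nearest other knockout array 9.16. Among the duct markers, Gata3 read 9.99 in wild type replicate 1 against 10.07 in the nearest array, Cdh1 read 7.87 in wild type replicate 2 against 8.60, and Emx2 read 9.74 in knockout replicate 2 against 10.26. Knockout replicate 2 also stood apart for Tctn1, at 8.47 against 8.23, and for Vangl1, at 8.60 against 8.87. Dnah5 read 6.35 in knockout replicate 3 against 6.56 in the nearest array.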

How the results depend on the processing

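Pkhd1 was higher in knockout under all 18 alternatives that could test it, and called in 14. Its difference was 0.46 without moderation (limma's linear model, adjusted p = 0.0661) and 0.46 under the replicate block (limma adjusted p = 0.0633). It ran from 0.42 to 0.51 when 1 array was left out. Members called were 0 without moderation, 0 with the replicate block and 0 with genes above the median level, where Pkhd1 and Nphp4 were not tested, and 0 to 1 with 1 array left out. The 279 genes called were 55 without moderation, 166 with the block, 151 with the Y-linked covariate and 107 to 243 with 1 array left out. Same-numbered arrays of the genotypes deviated together with correlations from -0.17 to 0.09, so the numbers were not taken as pairs. The other 6 members passed under 0 alternatives. Invs changed sign in 4, Glis2 in 2, Bicc1 and Ift88 in 1 each. Of 246 list medians 17 moved by more than 1 SD and 20 changed sign, and of 246 list counts 19 moved, 14 of them to fewer calls. The causes were not tested.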

Other observations

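Planar cell polarity genes, which orient cells within an epithelium and with which inversin has been linked, had 1 call among 12 measured genes. Fzd3, a frizzled receptor, read 10.24, 10.09, 10.19 and 10.32 in wild type and 9.51, 9.69, 9.69 and 9.85 in knockout, without overlap, and fell by 0.53 (log2, SE 0.08), with a limma adjusted p of 0.0157. Among 19 alternatives that call was lost in 1, without moderation (adjusted p = 0.0785 by the linear model). Vangl2, a core membrane protein of the same system, was at -0.24 and its paralogue Vangl1 at 0.25 (limma adjusted p = 0.110 and 0.273), so 2 related genes lay on opposite sides of 0. The frizzled receptor gene Fzd6 was at 0.18 and the signal transducer gene Dvl3 at -0.15 (limma adjusted p = 0.236 and 0.264). In all 6 of the 12 had an unadjusted p under 0.05, 2 higher and 4 lower, beside 16.7% of all genes. The 1 call stands beside 1.44% of all genes. This list lay at a median 77.5th percentile of level. Its genes were chosen with earlier results of these data known, so nothing is read from these counts.

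Motile cilia genes had 0 of 8 called by limma and 1 at an unadjusted p under 0.05, the dynein gene Dnah5 at 0.19 (limma adjusted p = 0.249). Their median was 0.04, and they lay at a median 22.4th percentile of level.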
